A study of Ovis aries and Bos taurus with 6 samples.

Results

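miR-10a, miR-10b, miR-196a and miR-196b are 4 miRNAs encoded inside the Hox gene clusters, and they were followed here in extracellular vesicles (EVs) from sheep and cow milk. The members were chosen by name: rows whose miRBase name, without the species prefix and arm suffix, is one of the 4. Sheep rows without a miRBase name were added where their listed sequence is that of miR-196a or miR-196b. This gave 4 of the 685 rows of the sheep table and 4 of the 779 rows of the cow table, 1 row for each member in each species. No row was found for the opposite (3p) arm under a member's name.

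The study sequenced small RNA of milk EVs from 3 sheep of the Ordos fine wool breed and from Holstein cows (3 libraries), all female, in mid lactation and without any treatment named. The EVs were precipitated with a commercial kit for body fluids, which does not sort vesicles by the cell that shed them. The cow libraries come from an earlier study of the same group, so the species differs together with breed and study, and these cannot be told apart below. In such mixtures, fewer vesicles of a cell type and less of an miRNA per vesicle cannot be told apart.

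Hox genes give cells their position along the body axis, and the miRNAs that lie among them are transcribed with their neighbours and repress Hox transcripts in turn. miR-10a lies in the HOXB cluster and miR-10b in the HOXD cluster. miR-196a is made from the HOXB and HOXC clusters and miR-196b from HOXA, and HOXB8 is a classic target of miR-196. A miRNA finds its targets mainly through its seed, the bases 2 to 8 from its 5′ end. In the RefSeq gene table of sheep assembly ARS-UI_Ramb_v3.0, MIR10A falls within the annotated span of HOXB3, with HOXB5 and HOXB4 as its nearest neighbours on either side. MIR10B falls within the span of HOXD4, between HOXD3 and HOXD8. The table was used for neighbours alone, since the sources used here do not name the genome build of the deposited tables.

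The sheep table lists a sequence for each row, and the sequences below show how little separates these miRNAs. They are written 5′ to 3′ as deposited, with bases 2 to 8 in capitals. The last is a row without a miRBase name that differs from the miR-196a row by 1 base and is not a member.
miR-10a: tACCCTGTagatccgaatttg
miR-10b: aCCCTGTAgaaccgaatttgtg
miR-196a: tAGGTAGTttcatgttgtt
miR-196b: tAGGTAGTttcctgttgttggga
row 1 base from miR-196a: tAGGTAGTtttatgttgttggg
Positions are counted from 1 at the 5′ end of the first miRNA of each pair. The listed miR-10b starts at base 2 of miR-10a, and over the 20 bases they share they differ only by T12A. Because of that start, bases 2 to 8 of the listed miR-10b are bases 3 to 9 of miR-10a. miR-196a and miR-196b differ only by A12C over 19 bases, outside the seed. The further row differs from miR-196a by C11T over the same 19 bases. Letters of the miR-196 seed, AGGTAGT, stand at bases 2 to 8 in 3 of the 685 sheep rows, which are these. They occur somewhere in 13 rows, among them let-7 miRNAs, where the run of 7 letters shared with miR-196b begins at base 3 of let-7, so the shared letters stand 1 base further along than in miR-196b. How the authors' counting treated a read that fits several rows with 1 mismatch is not given, so the values of such close rows are uncertain to that extent.

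The libraries held between 1073914 and 2078695 miRNA counts in sheep and between 328527 and 556489 in cow. Shares are given as CPM, the count scaled to 1000000 miRNA counts of the library. An miRNA with no count could still be at 2.79 CPM in the shallowest sheep library or at 9.13 CPM in the shallowest cow library (3 counts). Such limits and the intervals below cover counting error only, since PCR copies are not independent molecules. The largest row of a library took 19.6% to 68.9% of its counts, and 15.8% to 29.0% of a cow library's counts were in rows that carry a miRBase name. Sheep replicate 1 stood apart in markers of blood, liver, muscle, stroma and endothelium. Most markers of the other lists were also highest in it among the sheep libraries. The red blood cell list (1 of 3 members with a sheep row; miR-451 and miR-144 without one) summed to 77184 CPM there and to 741 and 705 CPM in the other sheep libraries. The liver miRNA miR-122 was at 70215 CPM against 1843 and 5703 CPM. The striated muscle list (3 of 3 members with a row) was at 26432 CPM against 537 and 772 CPM. That muscle sum was nearly all miR-1 (25686 against 506 and 650 CPM). Of its other members, miR-206 was also highest in replicate 1. miR-133a was not, at 18.9 CPM there against 6.25 CPM in replicate 2 and 28.9 CPM in replicate 3. The stroma and smooth muscle list (3 of 3) was at 7103 CPM against 1680 and 2326 CPM, and the endothelial miR-126 at 4386 CPM against 499 and 1227 CPM. The keratinocyte list (2 of 2) was at 297 CPM against 81.8 and 196 CPM. The leukocyte list (5 of 5) summed to 15082 CPM there against 12626 and 22253 CPM. That sum was led by miR-146a (9490 against 11870 and 20612 CPM). Its other members were highest in replicate 1: miR-150 (637 against 30.8 and 36.3 CPM) and miR-155 (3688 against 538 and 1283 CPM). So were miR-142 (1226 against 184 and 317 CPM) and miR-223 (39.6 against 2.89 and 4.66 CPM). The mammary epithelium list (4 of 5 members with a sheep row, miR-200a without one) summed to 202491 CPM in replicate 1 against 638722 and 384197 CPM. That sum was nearly all miR-148a (195857 against 636087 and 379859 CPM). The other members with a sheep row were highest in replicate 1. These were miR-200b (2411 against 763 and 1420 CPM), miR-200c (3159 against 1036 and 2371 CPM) and miR-141 (1064 against 836 and 548 CPM). In the cow libraries these lists lay at 15303 to 27558 CPM (red blood cell), 320 to 1014 CPM (liver), 0 to 30.4 CPM (muscle), 545 to 1248 CPM (stroma), 1728 to 2785 CPM (endothelium), 37.7 to 146 CPM (keratinocyte, 1 of 2 members with a cow row), 3327 to 6705 CPM (leukocyte) and 1122 to 2221 CPM (mammary epithelium).

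miR-10b, the HOXD member, took a smaller part of the miRNA counts in sheep than in cow milk EVs, while miR-10a, its HOXB relative, overlapped between the species. miR-196b was present in every sheep library and had no count in the named row of any cow library. miR-196a was near the limit of counting in both species. The call for miR-10b depends on what the counts are scaled to, as given below.

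miR-10b had 1657, 1812 and 1428 counts in sheep replicates 1, 2 and 3, or 1492, 872 and 1330 CPM. It had 1727, 1134 and 1022 counts in cow replicates 1, 2 and 3, or 5257, 2038 and 2636 CPM. Every sheep library lay below every cow library, and cow replicate 1 was the highest of the 6. Among the miRNAs named alike in both tables and tested, 55.3% did not overlap in CPM and 23.7% were lower in every sheep library. The means were 0.123% ± 0.0322 of the miRNA counts in sheep and 0.331% ± 0.171 in cow (SD, n = 3; exact two-sided permutation p = 0.1, the smallest that 3 against 3 allows). By rank within its library, miR-10b was the 50th, 46th and 51st most abundant row in sheep and the 20th, 32nd and 24th in cow.

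miR-10a had 2458, 593 and 820 counts in sheep replicates 1, 2 and 3, or 2213, 285 and 764 CPM. It had 449, 706 and 187 counts in the cow replicates, or 1367, 1269 and 482 CPM. Sheep replicate 1 was the highest and sheep replicate 2 the lowest of the 6 libraries, and the groups overlapped. The means were 1087 ± 1004 CPM in sheep and 1039 ± 485 CPM in cow (SD, n = 3; exact two-sided permutation p = 1.0). The highest sheep library, replicate 1, is the one with the blood, liver, muscle, stroma and endothelium miRNAs given above. Most markers of the other lists were highest there too. The part of these miRNAs' sources in its miR-10a value was not tested. Without it the sheep mean share lay below the cow mean (-0.0515 percentage points).

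miR-196b had 91, 332 and 806 counts in sheep replicates 1, 2 and 3, or 81.9, 160 and 751 CPM. It had 0 counts in each cow library, where 0 of 1272739 counts over the group allow up to 2.36 CPM. All 3 sheep libraries were thus above the cow limit, and they differed among themselves by 9.16-fold, with replicate 3 highest and replicate 1 lowest. Replicate 1, lowest here, is the sheep library highest in the blood, liver, muscle, stroma and endothelium lists and in most markers of the other lists. Their part in its miR-196b value was not tested. The named cow row is all that can be counted in cow: cow reads of miR-196b could also lie in cow rows without a miRBase name, which were not analysed here by sequence.

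miR-196a had 4, 17 and 3 counts in sheep, or 3.60, 8.18 and 2.79 CPM. In cow it had 0, 0 and 7 counts, or 0, 0 and 18.1 CPM. The groups overlapped, all cow counts came from replicate 3, and 4 of the 6 libraries had 4 counts or fewer. Summed over each group, the ratio of sheep to cow normalized rates was 0.611 with an exact 95% counting interval of 0.255 to 1.68. That ratio was 0.261 (0.0781 to 0.872) without sheep replicate 2, the library with most sheep counts, and 0.357 (0.149 to 0.982) without cow replicate 1. It was 0.223 (0.0933 to 0.613) with no normalization factors and 1.02 (0.428 to 2.81) with whole-table totals. Without cow replicate 3 no cow count is left, so no ratio can be given. The difference in share (sheep minus cow) then turned from -0.000116 to 0.000486 percentage points. The direction of miR-196a thus depended on the scaling and on cow replicate 3, and its size on single libraries.

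**Figure D1:**
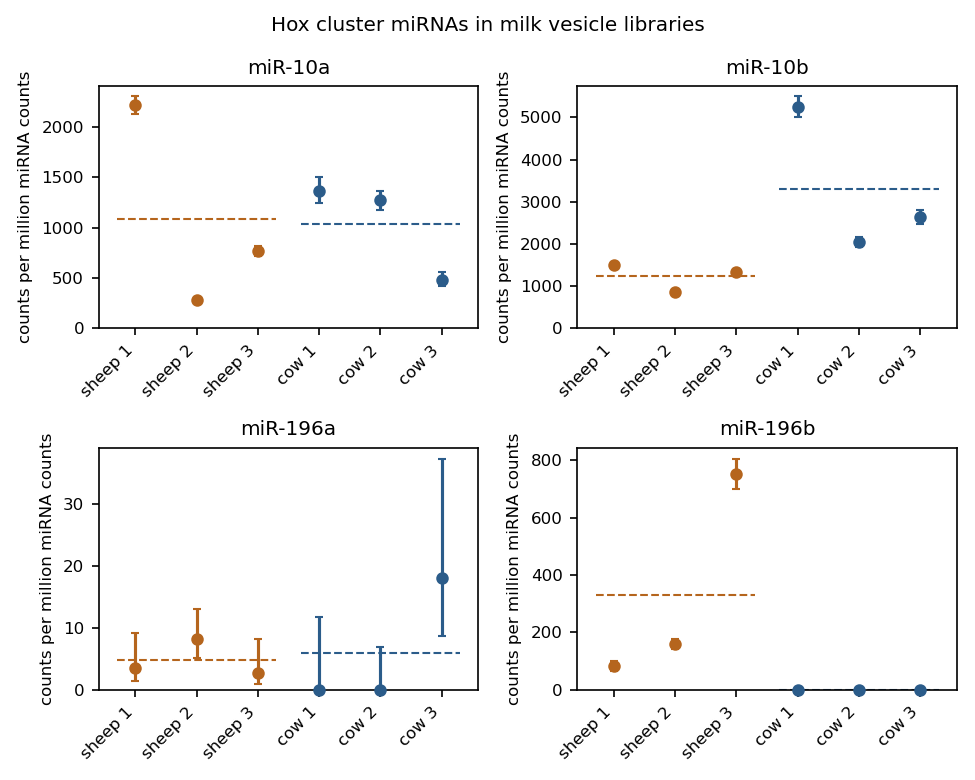
CPM of all miRNA counts (y axis, linear from 0, own scale in each panel) of the 4 miRNAs in each library (x axis), sheep in brown and cow in blue. Bars are 95% Wilson intervals and dashed lines are group means. miR-10b lies at 872 to 1492 CPM in sheep and at 2038 to 5257 CPM in cow, and miR-196b is at 0 in all cow libraries.

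Comparing close relatives within a library removes the scaling between libraries. miR-10a made up 59.7%, 24.7% and 36.5% of the summed miR-10a and miR-10b counts in sheep replicates 1, 2 and 3, and 20.6%, 38.4% and 15.5% in the cow replicates. The 95% Wilson interval was 58.2% to 61.2% in sheep replicate 1 and 36.2% to 40.6% in cow replicate 2. Within a species the highest and the lowest share were 59.7% and 24.7% in sheep and 38.4% and 15.5% in cow. miR-10a exceeded miR-10b in sheep replicate 1 alone. The log2 ratio of miR-10a to miR-10b was -0.61 ± 1.10 in sheep and -1.69 ± 0.91 in cow (SD, n = 3), a difference of 1.08 within the spread of the libraries (exact two-sided permutation p = 0.3). Without sheep replicate 1 that difference was 0.49.

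Of the rows with the miR-196 seed, miR-196b exceeded miR-196a in every sheep library, by 22.8-fold, 19.5-fold and 269-fold in replicates 1, 2 and 3. The 269-fold ratio rests on 3 miR-196a counts. The row that differs from miR-196a by C11T, looked at after its values were seen, had 11, 296 and 563 counts in sheep replicates 1, 2 and 3, or 9.90, 142 and 524 CPM. It was thus more abundant than miR-196a in each sheep library, and like miR-196b it was lowest in replicate 1 and highest in replicate 3. It made up 10.4% of the 3 rows' summed counts in replicate 1 (95% Wilson interval 5.89% to 17.6%), 45.9% in replicate 2 (42.1% to 49.8%) and 41.0% in replicate 3 (38.5% to 43.7%). The intervals of replicates 2 and 3 overlap each other, and both lie above that of replicate 1. All 3 rows together came to 95.4, 310.3 and 1278 CPM.

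**Figure D2:**
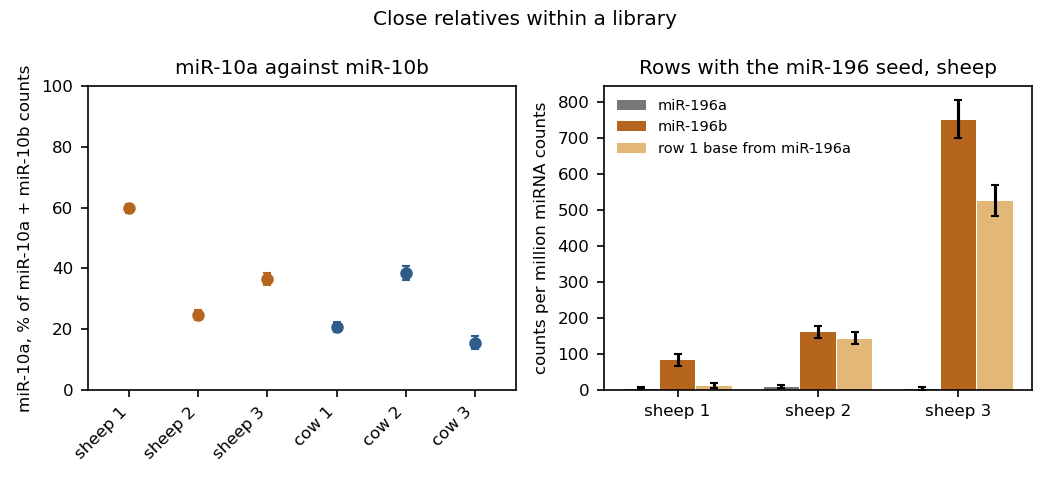
Left, miR-10a as a percentage of the summed miR-10a and miR-10b counts in each library. Right, CPM of the 3 sheep rows that carry the miR-196 seed, in each sheep library. Bars on points and columns are 95% Wilson intervals. miR-10a is above 50% only in sheep replicate 1 (59.7%), and miR-196b is the highest of the miR-196 rows in each sheep library.

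To test the species difference, the 42 miRNAs named alike in both tables were fitted together, with counts scaled to their own total and TMM factors (trimmed mean of M values, which lines up the bulk of the miRNAs). On that scale miR-10b stood at 2676, 6016 and 5487 CPM in sheep and at 26200, 7310 and 14319 CPM in cow. Its log2 difference, sheep minus cow, was -1.75 with an SE of 0.57 (edgeR quasi-likelihood test, Benjamini-Hochberg adjusted p = 0.00580), so that it was 3.37-fold higher in cow. The libraries did not overlap, as for 57.9% of the miRNAs tested, though sheep replicate 2 and cow replicate 2 lay close. miR-10a did not pass (-0.62 ± 0.62, adjusted p = 0.377, edgeR), with an approximate 95% interval of -1.83 to 0.59 (normal approximation), which leaves room for a difference in either direction. On that scale it was at 3969, 1969 and 3151 CPM in sheep and at 6812, 4551 and 2620 CPM in cow, again with overlap. Of the 38 miRNAs tested, 52.6% passed in either direction, 28.9% as higher in sheep and 23.7% as higher in cow, so 1 of 2 members past the threshold is near the background. The split of the 20 calls was 11 higher in sheep and 9 higher in cow. It became 5 and 13 without normalization factors, 7 and 10 with upper-quartile factors, 19 and 5 with limma on log2(TPM + 1) and 16 and 5 on log2(TPM + 10).

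The value of miR-10b depended on the scale. The deposited TPM divides each count by a constant of 9859791 to 16091056 per library, of which the miRNA counts are 6.67% to 13.4% in sheep and 2.51% to 4.42% in cow. In that unit miR-10b was at 168, 117 and 88.7 TPM in sheep and at 132, 90.1 and 82.2 TPM in cow, and the groups overlapped (124.7 ± 40.2 against 101.4 ± 26.7, SD, n = 3; exact permutation p = 0.6). limma on log2(TPM + 1) gave miR-10b a difference of 0.28 with adjusted p = 0.694 among 42 miRNAs. miR-10a was at 249, 38.4 and 51.0 TPM in sheep and at 34.3, 56.1 and 15.0 TPM in cow, again with overlap and with sheep replicate 1 far above the rest (difference of 1.33 on log2(TPM + 1), adjusted p = 0.130, limma). On this scale 36 of the 38 shared miRNAs tested moved up in sheep against the TMM values, with a median shift of 1.87 over all 38, and 60.5% of the 38 did not overlap between the species. The median difference over the miRNAs was 1.27 on that scale, and the 0.28 of miR-10b lies below it. Scaled to the whole table's totals, the miR-10b difference was -1.43 and its call ended (adjusted p = 0.0646, edgeR). The call also ended without cow replicate 1, the library of highest miR-10b (-1.20, adjusted p = 0.124, edgeR). In the wider join described below, miR-10b was called under both (-1.43, adjusted p = 0.0486 and -2.05, adjusted p = 0.00525, edgeR).

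**Figure D3:**
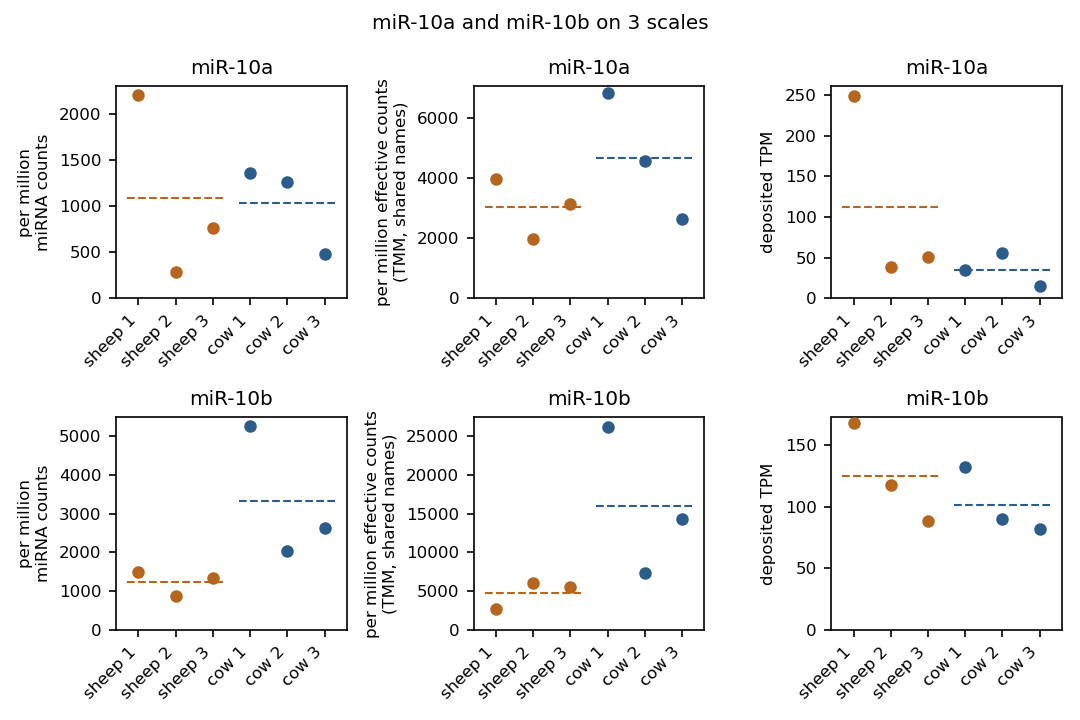
miR-10a (upper row) and miR-10b (lower row) in each library in CPM of all miRNA counts, in CPM of the shared names with TMM factors and in deposited TPM, each y axis linear from 0. Dashed lines are group means, with sheep in brown and cow in blue. For miR-10b the species separate on the left and in the middle and overlap in TPM, where sheep lies at 88.7 to 168 and cow at 82.2 to 132.

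**Figure D4:**
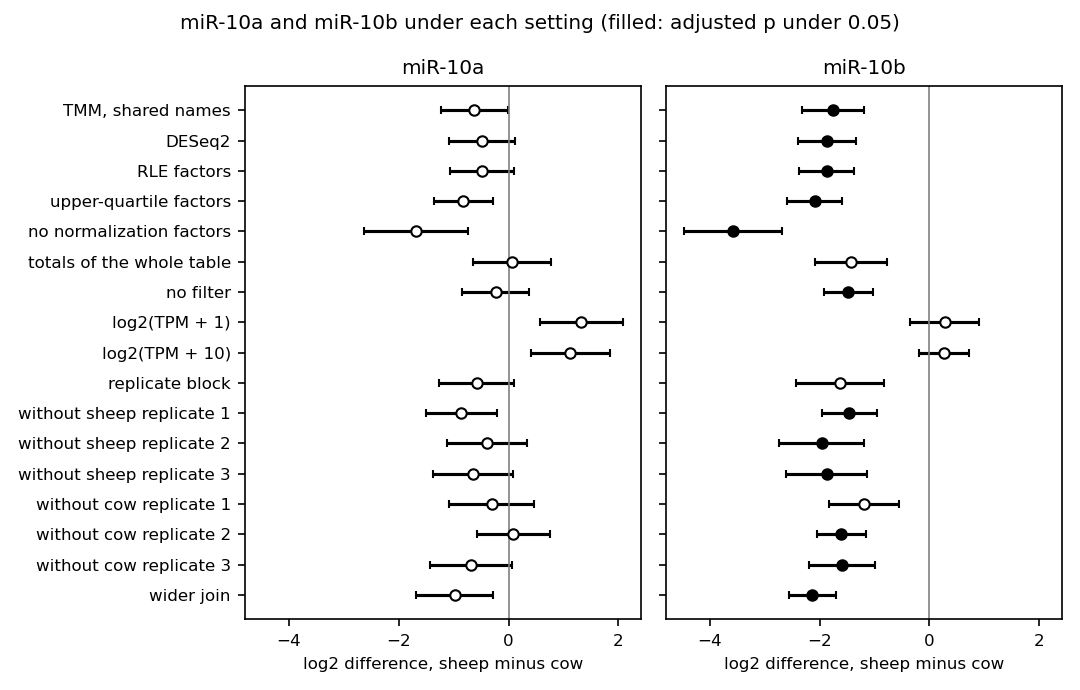
Log2 difference of sheep minus cow (x axis) for miR-10a and miR-10b under each setting (y axis), with the SE as bars. Filled points have an adjusted p under 0.05. miR-10b runs from -3.58 without normalization factors to 0.28 on log2(TPM + 1), and miR-10a passes under none of the settings drawn.

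miR-196b needed a join wider than the shared names, since its sheep row has no miRBase name. It held 58 miRNAs, of which 12 were joined across an arm suffix and 4 by sequence on the sheep side only, and 50 passed the filter. With the cow libraries together set to 3 counts, sheep milk EVs held at least 73.0-fold more miR-196b (1229 against 0 counts, higher in 3 of 3 sheep libraries; adjusted p = 0.00422, edgeR). Of the 50 miRNAs tested, 48.0% passed in either direction and 24.0% as higher in sheep, while 64.0% did not overlap in CPM, 40.0% being higher in every sheep library, and 66.0% did not overlap in TPM. The bound was 34.0 without sheep replicate 3, which holds most of the counts, 119.7 without sheep replicate 1 and 42.7 without cow replicate 1. Scaling moved it to 26.7 (no normalization factors) and to 122.3 (whole table's totals), and per TPM constant it was 377. miR-196b was called under each of the 15 other settings run. With 0 cow counts it passed the filter through the sheep libraries alone. Its p-value and these calls therefore restate that contrast and are not separate support. miR-196a had too few counts to pass the filter. With the filter removed it did not pass (-0.83 ± 1.83, adjusted p = 0.776, edgeR).

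In the wider join miR-10b was again lower in sheep (-2.13 ± 0.43, adjusted p = 0.00170, edgeR), on 2930, 3182 and 3443 CPM in sheep and 14984, 12986 and 13924 CPM in cow after TMM scaling. The libraries of each species lay closer together here than among the shared names, and the species again did not overlap, as for 58.0% of the 50 miRNAs tested (28.0% lower and 30.0% higher in every sheep library). The TMM factors moved between the joins, from 1.78 to 2.59 in cow replicate 1 and from 1.63 to 0.811 in cow replicate 2. The closeness thus depends on the scaling and is not firmer support for miR-10b. With DESeq2 in this join its difference was -2.04 ± 0.52. miR-10a again did not pass (-0.98 ± 0.70, adjusted p = 0.240, edgeR), though without sheep replicate 1 it passed as lower in sheep (-1.54, adjusted p = 0.0356). Of the 24 calls in this join 12 were higher in sheep and 12 higher in cow, which became 8 and 19 with no normalization factors, 17 and 10 with whole-table totals, 29 and 6 with limma on log2(TPM + 1) and 24 and 6 on log2(TPM + 10).

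The list of Hox cluster miRNAs holds the 4 members and miR-615 of the HOXC cluster, which was not joined. Of the 3 tested, miR-196b was higher in sheep, miR-10b higher in cow and miR-10a not past the threshold, beside 48.0% called in either direction and 24.0% in each over all 50, with a median log2 difference of -0.98 beside 0.04 over all 50 tested. As given above, miR-196b passed the filter through the sheep libraries alone, so its call here is not separate support. The nearest relatives of miR-10 by sequence are miR-99 and miR-100, and miR-125a and miR-125b were listed with them. Of these 5, miR-99b was not joined, and of the 4 tested 1 passed in each direction (24.0% over all 50), with a median of -0.14. miR-100, which shares a run of 11 bases with miR-10a, was higher in sheep by 3.98 ± 0.47 (adjusted p = 8.09e-05, edgeR), with 30732, 37182 and 34060 counts in sheep and 435, 439 and 291 in cow. miR-99a, with a shared run of 10 bases, was lower in sheep by -3.50 ± 0.48 (adjusted p = 0.000164, edgeR), on 1402, 900 and 831 against 2022, 2743 and 1433 counts. Both runs begin at base 7 of miR-10a, and the longest run of miR-10b with either is 5 bases. On log2(TPM + 1) miR-99a was at -1.05 and did not pass. miR-125a (-0.94 ± 0.56) and miR-125b (0.67 ± 0.45) did not pass. Without sheep replicate 1 miR-125a passed as lower in sheep (-1.87), and miR-125b passed as higher with totals of the whole table (1.57) and on log2(TPM + 1) (3.09). The miR-100 row of the sheep table was named by sequence and the cow row by name, and both rows of miR-99a by name.

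The miRNAs whose pattern over the 6 libraries came closest were found from log2(CPM + 1) after TMM scaling in the wider join, each centred on its own mean. Likeness is the root mean square difference in log2 units over 6 libraries, and its median over the 49 other miRNAs was 1.85 for miR-10a, 1.86 for miR-10b and 4.62 for miR-196b. Nearest to miR-10a were miR-30c (0.53), miR-125a (0.57) and miR-103 (0.66). All 3 had sheep replicate 1 as their highest sheep library, as miR-10a did. miR-30c was at 539 CPM there against 146 and 189 CPM, miR-125a at 9176 CPM against 1200 and 2154 CPM, and miR-103 at 456 CPM against 127 and 258 CPM. Nearest to miR-10b were miR-103 (0.53), miR-26a (0.68) and miR-23a (0.76). miR-26a, like miR-10b, lay lower in every sheep library (6922 to 12597 CPM) than in any cow library (23878 to 59015 CPM), as did 24.0% of the miRNAs tested. miR-103 (127 to 456 CPM in sheep, 377 to 466 CPM in cow) overlapped between the species. miR-23a overlapped too (752 to 1294 CPM in sheep, 761 to 1761 CPM in cow). These CPM values are of all miRNA counts, as are the others given for the nearest miRNAs. After the TMM scaling used for the distances, miR-103 and miR-23a lay lower in every sheep library than in any cow library. So did miR-10b and 28.0% of the miRNAs tested. Nearest to miR-196b, though at a larger distance, were miR-148a (1.46), known from lactating mammary epithelium, and the epithelial miR-200b (1.83) and miR-200c (2.05). All 3 were higher in every sheep library than in any cow library, as were 40.0% of the miRNAs tested. Within sheep miR-200b (2411, 763 and 1420 CPM in replicates 1, 2 and 3) and miR-200c (3159, 1036 and 2371 CPM) were highest in replicate 1, where miR-196b was lowest. miR-148a (195857, 636087 and 379859 CPM) was lowest in replicate 1, as miR-196b was, but highest in replicate 2. The libraries share depth and scaling across all miRNAs, so these distances are a description.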

How the data were processed

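Small RNA counts of 3 sheep and 3 cow milk EV libraries were used. The deposited counts are whole reads per miRNA row, 1 table per species. Bowtie and cutadapt 1.14 are named in the authors' processing, per the submitters' processing notes; the sources used here do not give the counting tool, build or miRBase release. The deposited TPM equal count divided by 1 constant per library and multiplied by 1000000, without length correction; what the constant counts was not stated.

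The members and lists were chosen with earlier results of these data known. No table of mature miRNAs was used, so the sheep rows of miR-196 were identified from the seed letters AGGTAGT at bases 2 to 8, C at base 11 and A (miR-196a) or C (miR-196b) at base 12, and those of miR-100 and miR-125a likewise; this replaced the planned match to a reference and was set after the data were seen. Markers without a sheep name were found by seed.

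Names shared by both tables (42), or the wider join (58), were tested with edgeR 4.0.16 in R 4.3.3 (quasi-likelihood, TMM, library size equal to the joined total, default filterByExpr), with Benjamini-Hochberg adjustment over all miRNAs tested and a threshold of 0.05; each SE was derived as the log2 difference over the root of F. DESeq2 1.42.0 and limma 3.58.1 (log2(TPM + 1) and log2(TPM + 10)) were alternatives. Shares and ratios were compared with exact permutation tests. The edgeR step was tested on simulated data. The labels speak of 3 sheep and do not say that the cow libraries are separate animals, so p-values measure the spread between these libraries, which may be technical. All rows of the members are named. Other miRNAs named are the fixed lists and the 3 nearest in pattern to each tested member.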

Additional observations from a re-analysis of the deposited data

How the results depend on the processing

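Scaling changed most. miR-10b was lower in sheep in all but the TPM settings (0.28 and 0.26 on log2(TPM + 1) and log2(TPM + 10)); its call ended with totals of the whole table (-1.43). miR-10a turned to 0.065 with totals of the whole table and to 1.33 and 1.13 in the TPM settings, none past the threshold. With 1 library left out, miR-10b ran from -1.97 to -1.20 and miR-10a from -0.86 to 0.090. The difference in share of miR-10a (sheep minus cow, percentage points) was 0.00481 over all rows, -0.598 over the shared names, -0.0902 without each table's largest row and from -0.0515 to 0.0449 with 1 library left out. That of miR-10b turned to 0.00233 of the TPM constant, and that of miR-196a to 3.76e-05, and ran from -0.000417 to 0.000486 with 1 library left out. The log2 ratio of miR-196a rates was -2.16 with no normalization factors, and 4.32 (adjusted p = 0.0885, edgeR) with the row 1 base away added, an alternative chosen after seeing the data. The counts of miRNAs past the threshold stayed within 1.5 times under each setting. With the replicate number as a block, miR-10b was at -1.63 and no longer called among the shared names. In the wider join it was at -2.13 and called (adjusted p = 0.00402, edgeR). Calls went from 20 to 14 (wider join, 24 to 23). Same-numbered libraries correlated by -0.09, 0.21 and 0.11, within the range of the other pairs (-0.33 to 0.38). With so few libraries this does not settle whether the numbers pair them. Blocked comparisons added after seeing the data changed no other call: miR-196a without the filter was at 0.57 (adjusted p = 0.942, edgeR), opposite in sign to its ratio, and exact sign flips of same-numbered differences gave p = 0.5 for the miR-10a to miR-10b ratio and 0.25, the smallest they can give, for the shares of miR-10b and miR-196b. Depth limits miR-196a, with 24 sheep and 7 cow counts.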
